A study of Mus musculus with 36 samples.

Results

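The genes described here are 36 mouse genes that sense DNA damage or repair it, taken from the 24061 gene names measured in RNA-seq of cardiac cells after radiation. A gene belongs if its name is on the list, which was drawn up with earlier results of these data known. Each was read from the RefSeq transcript row that held the most reads over the 36 libraries. By role, 12 members sense breaks or signal them, 6 join broken ends directly, 9 act in homologous recombination, 2 repair crosslinks, 5 excise damaged bases or nucleotides and 2 copy past lesions. The hearts of wild-type C57Bl6J mice received a single fraction of 12 Gy (RT 12 Gy) from a small animal microirradiator or a sham treatment. Endothelial cells, myocytes and fibroblasts were profiled 6 hours, 7 days and 28 days later, which gives 18 groups of 2 libraries each. All groups share the strain and the wild-type genotype. The age and sex of the animals and the way the cell types were separated are not in the labels. Nor do the labels say that the 2 libraries of a group came from separate animals, so p-values measure the spread between libraries, which may be technical.

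Ionizing radiation breaks both strands of DNA. The ends are bound by the MRN complex (Mre11, Rad50 and Nbn) and by the Ku pair, the kinases ATM, ATR and DNA-PK pass the signal on, and the ends are then either joined directly or, in cells that have copied their DNA, repaired from the sister copy by recombination. Damage of bases and of single strands is cut out by excision repair, and translesion polymerases copy past what remains. Much of this machinery is known to be regulated on the protein, by phosphorylation and ubiquitin, while p53 raises the transcription of a small set of its target genes, and the recombination genes are known to be transcribed mainly in cells that are cycling.

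Libraries held 25.91 to 45.49 M (mega) reads in endothelial cells, 10.18 to 19.42 M reads in myocytes and 25.63 to 31.94 M reads in fibroblasts, summed over the transcript rows used. Each preparation was highest for its own markers: summed endothelial markers were 9016 to 9763 CPM (read counts scaled to library size) in sham endothelial libraries, 913.5 to 2012 in sham myocyte libraries and 108.9 to 262.2 in sham fibroblast libraries. Markers of other cells were present too. Summed macrophage markers were 347.9 to 597.0 CPM in sham myocyte libraries, 15.8 to 28.9 in endothelial and 24.9 to 47.2 in fibroblast ones. Sham endothelial libraries held 1021 to 1879 CPM of fibroblast markers and 1077 to 1647 of pericyte and smooth muscle markers. Some markers of other cells moved with irradiation. Summed erythroid markers at 28 days were 1394 and 1051 CPM in sham and 681.9 and 282.9 in irradiated endothelial libraries, 1170 and 765.9 against 166.6 and 362.2 in fibroblasts, and 955.6 and 866.0 against 477.8 and 644.5 in myocytes, without overlap. Summed mesothelial markers in fibroblasts were 1991 and 2271 against 2325 and 2614 at 6 hours, 976.3 and 1525 against 1956 and 1832 at 7 days, and 1366 and 1516 against 1765 and 1768 at 28 days. Summed endothelial markers in myocytes were 1091 and 1312 in sham against 904.4 and 947.5 in irradiated libraries at 6 hours. They were 1497 and 913.5 against 718.3 and 1047 at 7 days, with overlap, and 1639 and 2012 against 1398 and 1340 at 28 days. The part of these markers in the results at those times was not tested. The damage response itself was plain in the reference genes. Cdkn1a, the p53 target that stops the cell cycle, was 3.68-fold, 2.77-fold and 2.51-fold higher in irradiated than in sham endothelial cells at 6 hours, 7 days and 28 days, and 7.62-fold, 2.79-fold and 2.21-fold higher in fibroblasts, all called. In myocytes its values were 4.43-fold and 4.81-fold at 6 hours and 7 days, both called, and 1.77-fold at 28 days with an adjusted p of 0.203. Mdm2, which marks p53 for degradation, was called in endothelial cells (4.82-fold, 2.55-fold and 1.69-fold) and fibroblasts (4.23-fold, 1.56-fold and 1.44-fold) at the 3 times, and in myocytes at 6 hours (2.54-fold) but not at 7 days (1.3-fold, adjusted p = 0.349) or 28 days (1.26-fold, adjusted p = 1).

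Between 0 and 8 members were called in each of the 9 comparisons. A gene is called here when the edgeR quasi-likelihood test of irradiated against sham libraries gives an adjusted p (Benjamini-Hochberg over all genes tested) below 0.05. In endothelial cells at 6 hours 7 members rose (Rad50, Atm, Prkdc, Rbbp8, Brca2, Ercc5 and Polk) and Chek1 fell, where 11.3% of 14919 genes were called, 6.1% higher and 5.23% lower. Of the members 19.4% were called higher, above the share of all genes, and 2.78% lower. The list was drawn up with earlier results of these data known, so the shares here are descriptions and not a test. Atm, Prkdc and Brca2 have transcripts of 8 kb or longer, and 19.8% of all genes of that length were called higher. At 7 days Polk alone was called in endothelial cells (1.82% of genes called, 0.925% higher and 0.891% lower), and at 28 days H2afx, Exo1, Brca1, Fancd2 and Polk rose (9.97% of genes called, 5.72% higher and 4.25% lower). Those 5 are 13.9% of the members, again above the share of genes called higher, and no member was called lower. In fibroblasts Rbbp8, Ercc5 and Polk rose at 6 hours, where 24.6% of 14998 genes were called, 12.3% in each direction. The 3 called members are 8.33% of the list, a smaller share. Polk alone rose in fibroblasts at 7 days (1.84% of genes called, 1.51% higher and 0.327% lower) and Brca1 and Polk at 28 days (3.29% of genes called, 2.48% higher and 0.813% lower). In myocytes Polk rose at 6 hours, where 0.326% of 14115 genes were called, all of them higher (0% lower). No member was called in myocytes at 7 days (0.085% of genes called, 0.0638% higher and 0.0213% lower; 2 members at an unadjusted p below 0.05) or at 28 days (0.0354% of genes called, 0.0283% higher and 0.00708% lower; 3 members at an unadjusted p below 0.05), and DESeq2 also called 0 at both times.

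**Figure D1:**
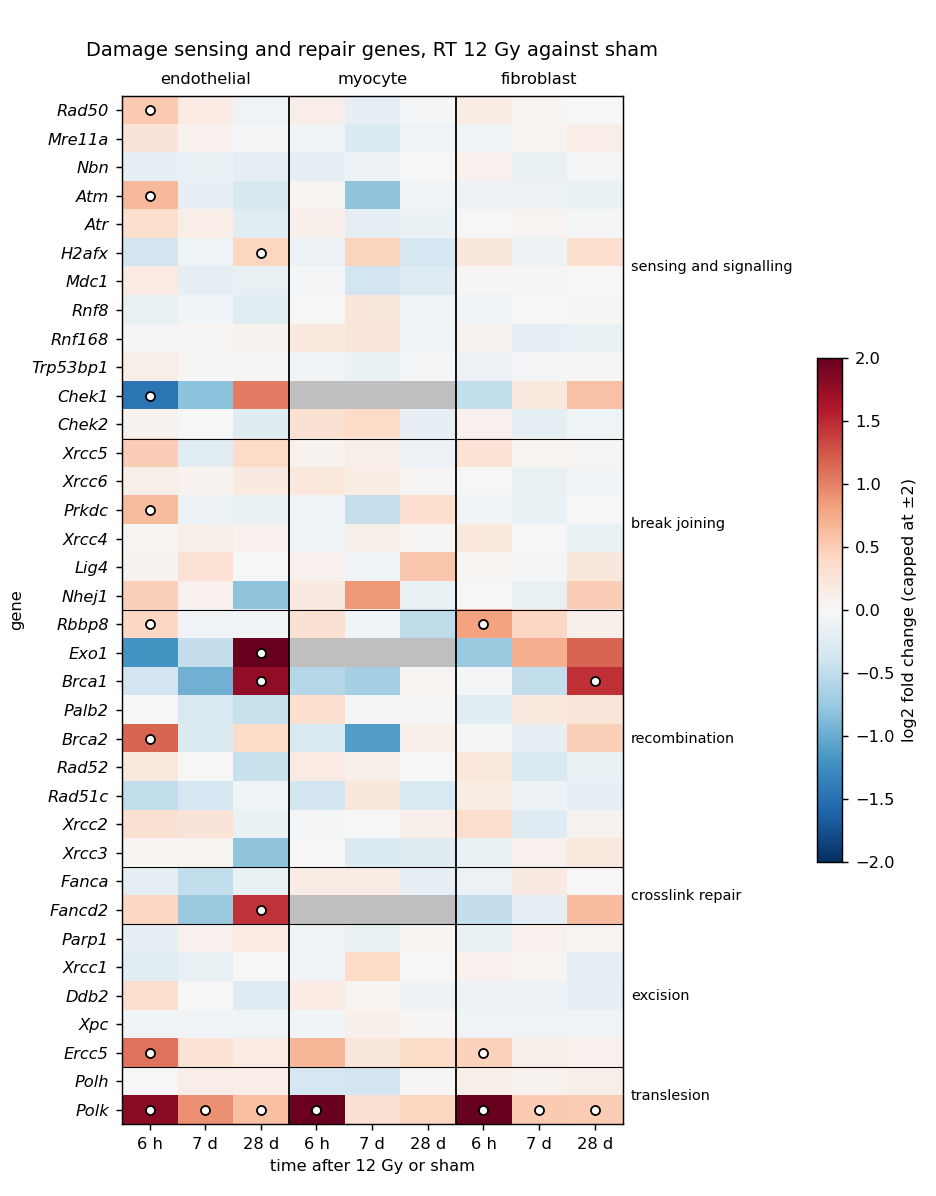
Log2 fold change of RT 12 Gy over sham for each of the 36 members (rows, grouped by role) in 9 comparisons (columns, 3 times in each of 3 cell types); colour is capped at 2 in either direction, open circles mark genes called at an adjusted p below 0.05, and grey cells were not tested. The Polk row is called in 7 of the 9 columns, and most other cells are pale.

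All 36 members were tested in endothelial cells and fibroblasts and 33 in myocytes, where Chek1, Exo1 and Fancd2 had too few reads. The median log2 fold change of the members was 0.09, -0.04 and -0.05 in endothelial cells at 6 hours, 7 days and 28 days, 0.01, 0.01 and -0.02 in myocytes and 0.00, -0.02 and 0.03 in fibroblasts. Over all genes tested the medians lay between -0.01 and 0.02. How firmly a lack of change can be stated depends on the spread. In fibroblasts an interval of the log2 value plus or minus 1.96 standard errors lay within 1.5-fold in either direction for 26 of 36 members at each time, and in endothelial cells for 18, 25 and 22 of 36. In myocytes, with shallower libraries and a median standard error of 0.22 to 0.23 on the log2 scale, it did so for 17, 14 and 14 of 33. The multiple 1.96 takes a normal distribution. With so few libraries these intervals are narrower than 95%, and the counts are upper limits.

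Levels before irradiation differed widely among members and were compared per transcript length, in RPKM (reads scaled to transcript length and library size), over the 6 sham libraries of each cell type. Parp1, the sensor of single-strand breaks, led in myocytes at 12.3 ± 0.428 RPKM (SD, n = 6), and its endothelial and fibroblast levels were 7.87 ± 0.189 and 5.76 ± 0.391. Nbn, a part of the MRN complex, was near 7 in all cell types (7.17, 6.66 and 7.26 RPKM in endothelial cells, myocytes and fibroblasts). At the other end Exo1, Fancd2, Brca1, Brca2, Chek1 and Palb2 were the 6 lowest members in each cell type, with means of 0.0726 to 0.338 RPKM in endothelial cells, 0.0221 to 0.129 in myocytes and 0.0189 to 0.208 in fibroblasts. Chek2, the kinase that ATM activates, stood at 8.70 ± 0.582 RPKM in endothelial cells and at 1.57 ± 0.451 in myocytes and 1.04 ± 0.163 in fibroblasts, and the endothelial libraries (8.03 to 9.68) did not overlap the others (0.742 to 2.12). Xrcc5, which encodes Ku80 of the Ku pair, showed the opposite order, 1.71 ± 0.367 in endothelial cells against 4.46 ± 0.294 in myocytes and 4.85 ± 0.425 in fibroblasts. Its myocyte and fibroblast ranges overlapped (4.05 to 4.88 and 4.13 to 5.23). Its partner Xrcc6 (Ku70) was 4.54 ± 0.555, 7.66 ± 0.38 and 5.39 ± 0.414 in the same order. Polk was 3.69 ± 0.403 in endothelial cells, 1.97 ± 0.195 in fibroblasts and 1.02 ± 0.297 in myocytes, with no overlap between the cell types.

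**Figure D2:**
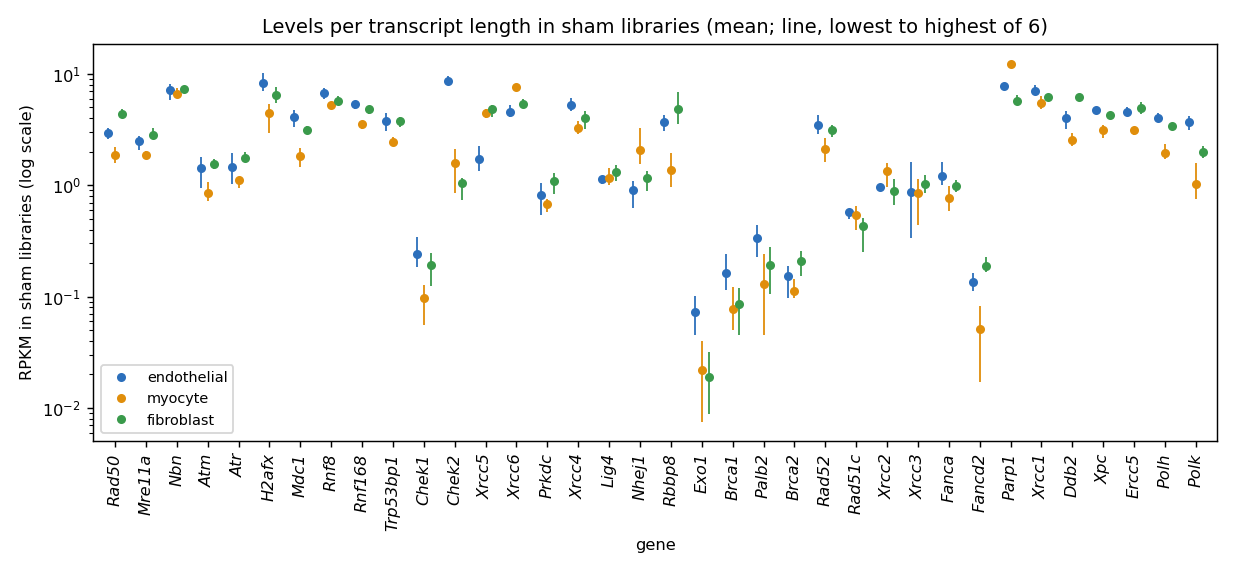
RPKM (log scale) of each member in sham libraries; points are means of 6 libraries per cell type and lines run from the lowest to the highest library. Chek2 is high in endothelial cells and Xrcc5 low, while Exo1, Brca1, Brca2, Chek1, Palb2 and Fancd2 form the lowest set in every cell type.

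Polk encodes DNA polymerase kappa, a translesion polymerase that copies past bulky lesions and also fills gaps in nucleotide excision repair. It was the one member called in all 3 cell types at 6 hours and the one called at all 3 times in endothelial cells and fibroblasts. The gene lies on the minus strand of chromosome 13 (GRCm38.p6 96480687 to 96542579), and RefSeq gives it 2 transcription starts. The 250 bases before each are printed here, 5′ to 3′, because no other member responded as often. Capitals mark a match to the p53 decamer consensus, searched on both strands. That decamer is only part of a full p53 site.
Polk outer start, chr13:96542580-96542829, minus strand: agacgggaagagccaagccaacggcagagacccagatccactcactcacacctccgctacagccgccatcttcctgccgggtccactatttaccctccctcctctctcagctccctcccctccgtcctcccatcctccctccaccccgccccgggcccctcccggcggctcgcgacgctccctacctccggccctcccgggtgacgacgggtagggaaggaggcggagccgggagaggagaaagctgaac
Polk start inside the gene, chr13:96519188-96519437, minus strand: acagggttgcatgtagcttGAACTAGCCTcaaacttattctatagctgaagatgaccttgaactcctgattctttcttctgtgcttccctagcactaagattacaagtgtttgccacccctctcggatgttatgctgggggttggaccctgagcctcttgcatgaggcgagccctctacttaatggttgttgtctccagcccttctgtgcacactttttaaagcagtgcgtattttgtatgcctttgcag
The window of the outer start held no such match, and the inner one held 1, from 231 to 222 bases before the start. Among 32851 mouse promoter windows of this length 7.1% held a match, and so did 2 of the 26 members with a window in the table (Polk and Fanca, over 29 windows). A match is a string of letters and was not tested as a binding site.

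In endothelial cells at 6 hours the sham libraries held 20.8 and 22.2 CPM of Polk and the irradiated ones 80.6 and 73.7. At 7 days the values were 25.8 and 25.1 against 44.3 and 52.6, and at 28 days 26.2 and 28.3 against 47.6 and 35.2. Irradiated libraries were above sham libraries at every time, and the gap narrowed with time. The log2 fold changes were 1.80 ± 0.12 (SE, 3.49-fold, adjusted p = 7.30e-07), 0.92 ± 0.12 (1.89-fold, adjusted p = 8.18e-04) and 0.60 ± 0.12 (1.51-fold, adjusted p = 0.00802), and they differed between times (edgeR F-test, adjusted p = 0.00219; 6.26% of genes did). The call at 28 days was lost without either sham library of that time, with an adjusted p of up to 0.077, and in the fit of the 4 libraries of that time alone (0.0673).

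In fibroblasts at 6 hours the sham libraries held 12.2 and 13.9 CPM of Polk and the irradiated ones 55.8 and 50.4. At 7 days the values were 12.4 and 15 against 19.2 and 20.5, and at 28 days 11.8 and 14.1 against 19.6 and 17.9. Again no irradiated library overlapped the sham libraries. The log2 fold changes were 2.02 ± 0.11 (4.06-fold, adjusted p = 6.76e-09), 0.53 ± 0.11 (1.45-fold, adjusted p = 0.0233) and 0.50 ± 0.11 (1.42-fold, adjusted p = 0.0216), and they differed between times (adjusted p = 2.26e-05; 9.89% of genes did). At 7 days the call was lost without the first sham or either irradiated library (adjusted p up to 0.272), and at 28 days without the first sham or either irradiated library (up to 0.26).

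In myocytes at 6 hours Polk was 5.56 and 6.38 CPM in sham and 20.1 and 27.2 in irradiated libraries, a log2 fold change of 1.97 ± 0.32 (3.9-fold, adjusted p = 0.0253). The groups did not overlap, but the call was lost in 8 of the 12 fits that left out 1 library (each 6-hour library, each sham library of 7 days and each irradiated library of 28 days), with an adjusted p of up to 0.486. At 7 days the irradiated libraries, at 4.46 and 11.3 CPM, lay on either side of the sham libraries at 6.44 and 6.74 (adjusted p = 0.588). The library at 4.46 had 2.22% of its reads in transcripts of 8 kb or longer, against 4.90% to 5.49% in the others of that time. The part of that library in the 7-day Polk result was not tested. At 28 days the values were 8.05 and 11.4 in sham and 12.8 and 13.9 in irradiated libraries (0.43 ± 0.31, adjusted p = 1). The 6-hour effects of the 3 cell types, 1.80, 1.97 and 2.02 on the log2 scale, were not told apart by the F-test of a difference between cell types (adjusted p = 0.883; 2.11% of genes differed).

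Polh, the other translesion member, encodes polymerase eta, which copies past ultraviolet damage. It was called in none of the 9 comparisons. In endothelial cells at 6 hours it was 15.9 and 16.4 CPM in sham and 16.5 and 16.9 in irradiated libraries (0.01 ± 0.11, adjusted p = 0.979), and in fibroblasts 13.5 and 13.6 against 14.7 and 14.7 (0.11 ± 0.09, adjusted p = 0.408). So of the 2 translesion members 1 rose and the other stayed within 0.14 log2 units of sham in these cell types at every time.

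**Figure D3:**
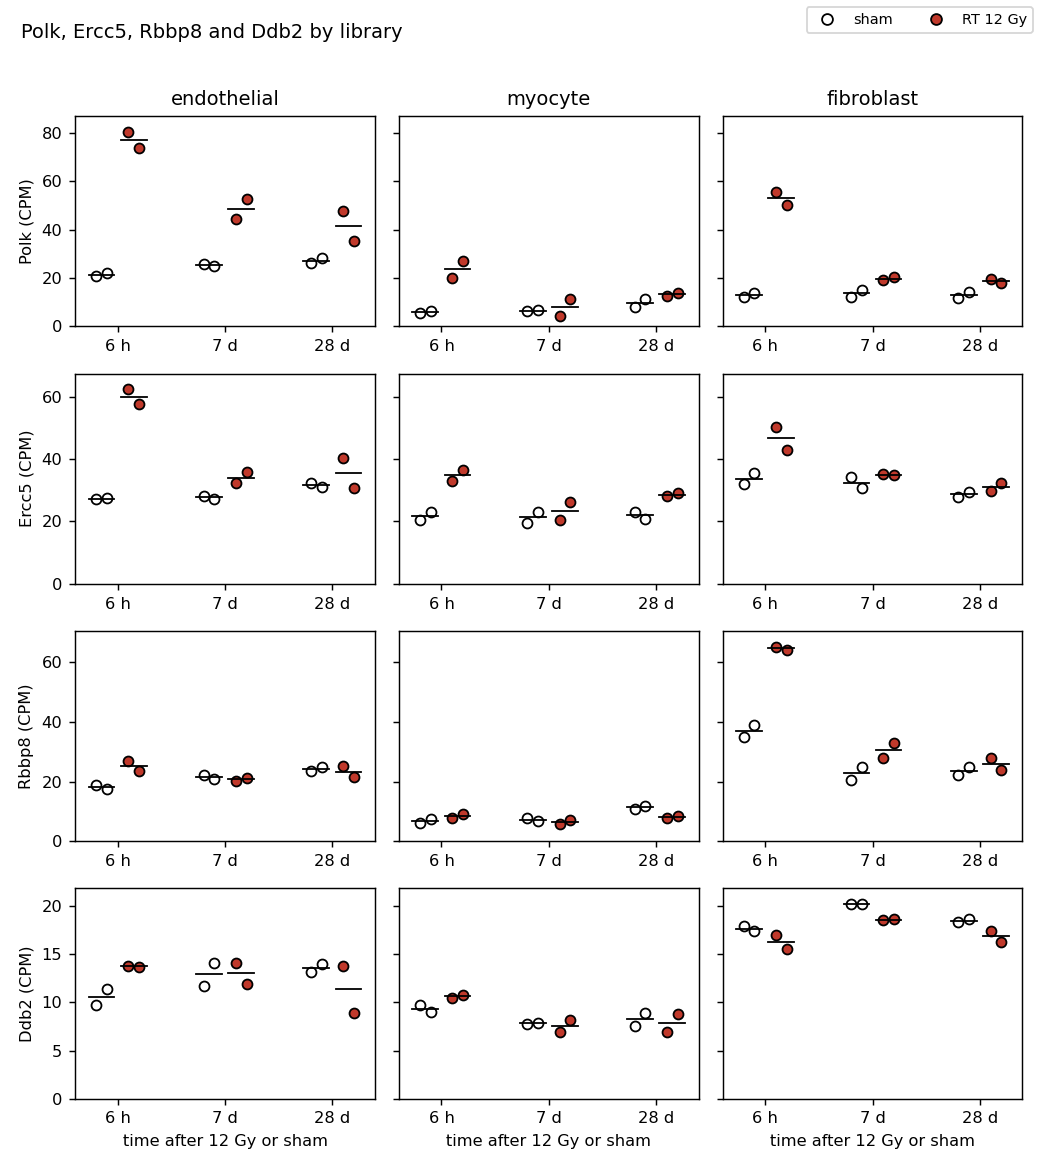
CPM of Polk, Ercc5, Rbbp8 and Ddb2 in each library (open, sham; red, RT 12 Gy; bars, means of 2) by time and cell type. Polk averages 53.1 against 13.1 CPM in fibroblasts at 6 hours and stays above sham at later times in endothelial cells and fibroblasts, Ercc5 and Rbbp8 stand apart mainly at 6 hours, and Ddb2 shows no call.

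Of the 5 excision members, Ercc5 changed. It encodes XPG, the nuclease that cuts on the 3′ side of a lesion in nucleotide excision repair. In endothelial cells at 6 hours it was 27.2 and 27.4 CPM in sham and 62.4 and 57.5 in irradiated libraries, a log2 fold change of 1.09 ± 0.11 (2.13-fold, adjusted p = 2.80e-05). In fibroblasts it was 32.1 and 35.4 against 50.3 and 42.9 (0.46 ± 0.09, 1.38-fold, adjusted p = 0.00151). In myocytes it was 20.6 and 22.9 against 33.1 and 36.4, again without overlap, but the change did not pass the test (0.66 ± 0.16, 1.58-fold, adjusted p = 0.252). Non-overlap was common there: of 14115 genes, irradiated libraries were both above sham for 3687 and both below for 2783. Later values of Ercc5 were smaller: 0.28 and 0.16 on the log2 scale in endothelial cells at 7 and 28 days and 0.11 and 0.09 in fibroblasts, none called. The endothelial effect differed between times (adjusted p = 0.00467). The difference between cell types at 6 hours did not pass the test (adjusted p = 0.0995).
The 250 bases before a RefSeq start of Ercc5, on chromosome 1, are shown because Ercc5 is the one excision member called, in 2 cell types; capitals mark a match to TTTGAA, a short element known from promoters of genes expressed late in the cell cycle, here on the opposite strand, from 141 to 136 bases before the start.
Ercc5, chr1:44147494-44147743, plus strand: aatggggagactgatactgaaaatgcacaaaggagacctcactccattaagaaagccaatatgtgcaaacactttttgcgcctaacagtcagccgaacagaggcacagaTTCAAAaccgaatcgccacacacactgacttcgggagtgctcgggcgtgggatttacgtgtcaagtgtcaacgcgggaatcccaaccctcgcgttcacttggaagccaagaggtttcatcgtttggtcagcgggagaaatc
The same search found TTTGAA in 5252 of the 32851 windows and in 2 of the 26 members (Ercc5 and Rnf8). No match to the p53 decamer was in the Ercc5 window, and the printed matches do not overlap each other. That window lies inside the span of the gene (GRCm38.p6 44146948 to 44181260). The bases before the outer edge of the span were not searched.

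The other excision members were called nowhere. Ddb2, which recognises ultraviolet lesions and is known as a p53 target in human cells, was 9.71 and 11.4 CPM in sham and 13.8 and 13.7 in irradiated endothelial cells at 6 hours (0.34 ± 0.17, adjusted p = 0.228). In fibroblasts it was 17.9 and 17.4 against 17 and 15.5 (-0.12 ± 0.08, adjusted p = 0.307), and in myocytes 9.72 and 8.96 in sham and 10.5 and 10.8 in irradiated libraries (0.17 ± 0.18, adjusted p = 1). Xpc, the sensor that opens global nucleotide excision repair, was among the steadiest members: 27.5 and 27.9 CPM against 27.2 and 27.9 in endothelial cells at 6 hours, with log2 fold changes from -0.08 to 0.10 over the 9 comparisons. Parp1 ranged from -0.17 to 0.17 on the same scale. Xrcc1, the scaffold of single-strand break repair, ranged from -0.23 to 0.40, the highest value being that of myocytes at 7 days (adjusted p = 0.349).

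Among the 12 members that sense or signal breaks, Rad50 and Atm rose and Chek1 fell in endothelial cells at 6 hours. Rad50, the arm of the MRN complex, was 21.2 and 21.9 CPM in sham and 33.8 and 29.9 in irradiated libraries (0.52 ± 0.10, 1.43-fold, adjusted p = 0.00689). Its sham level was lower at 6 hours than at 7 days (25.9 and 23.2) and 28 days (26.6 and 26.6). The irradiated 6-hour libraries were above those later sham levels as well. Atm, the kinase that MRN activates, was 17.9 and 20.9 against 29.5 and 32.8 (0.65 ± 0.11, 1.57-fold, adjusted p = 0.00292). Irradiated libraries were above sham libraries for both genes. The Atm effect differed between times in endothelial cells (adjusted p = 0.00515), with log2 values of -0.17 at 7 days and -0.32 at 28 days that were not called. The sham level of Atm was itself lower at 6 hours than at 7 days (29.9 and 27.6 CPM) and 28 days (32.6 and 34.5). The irradiated 6-hour libraries were near those later sham levels. The other MRN members, Mre11a and Nbn, had 6-hour values of 0.25 ± 0.13 and -0.17 ± 0.10 (adjusted p = 0.266 and 0.319). Atr, the kinase of stalled replication forks, was at 0.32 ± 0.12 (adjusted p = 0.104). In fibroblasts none of the 12 was called at any time: at 6 hours Rad50 was 35.8 and 39.5 CPM in sham and 45.1 and 38.5 in irradiated libraries, with overlap, and Atm 26.6 and 30 against 26.7 and 25.7.

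Chek1 encodes the checkpoint kinase downstream of ATR. Its endothelial level at 6 hours was 1.85 and 1.16 CPM in sham and 0.754 and 0.415 in irradiated libraries, a log2 fold change of -1.46 ± 0.36 (adjusted p = 0.0215). It was 1.33 and 1.37 against 0.826 and 0.717 at 7 days (-0.82 ± 0.36, adjusted p = 0.477) and 0.991 and 1.12 against 1.84 and 2.51 at 28 days (1.03 ± 0.33, adjusted p = 0.0715). The libraries did not overlap at any time, and the sign turned between 7 and 28 days. Such non-overlap was common among the 14919 genes. Irradiated libraries were both above sham for 4653 genes and both below for 2961 at 6 hours. These counts were 3475 and 3066 at 7 days and 4371 and 4170 at 28 days. The Chek1 effect differed between times (adjusted p = 0.0182). Its 6-hour call rests on few reads and was lost without the first sham or the second irradiated library (adjusted p up to 0.212) and when the 4 libraries of that time were fitted alone (0.0893).

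H2afx encodes the histone H2AX, whose phosphorylated form marks breaks. In endothelial cells it was 22.1 and 18.5 CPM in sham against 17.2 and 15.2 in irradiated libraries at 6 hours (-0.38 ± 0.12, adjusted p = 0.0563), and 15.5 and 15.4 against 21.2 and 20.5 at 28 days (0.43 ± 0.12, 1.35-fold, adjusted p = 0.036). The 28-day call was lost without any 1 of the 4 libraries of that time (adjusted p up to 0.198) and in the fit of those 4 alone (0.0575). The mediators and ubiquitin ligases that gather at a break, Mdc1, Rnf8, Rnf168 and Trp53bp1, were called in no comparison, nor was Chek2. In fibroblasts these 4 had log2 fold changes from -0.16 to 0.07 at all times.

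Of the 6 break-joining members only Prkdc, the DNA-PK catalytic subunit, was called, and only in endothelial cells at 6 hours. Its sham level was lower at 6 hours than in the endothelial sham libraries of 7 days (18.3 and 15.9 CPM) and 28 days (20.1 and 21.3). The 6-hour values were 10.9 and 12.5 CPM in sham and 17.1 and 20.2 in irradiated libraries (0.64 ± 0.13, 1.56-fold, adjusted p = 0.0087). Leaving out the first sham or the second irradiated library ended the call (adjusted p up to 0.0844). Xrcc5 was 5.5 and 6.72 against 8.48 and 9.07 (0.49 ± 0.15, adjusted p = 0.0519), just outside the threshold, and in fibroblasts 16.9 and 20.7 against 21.7 and 24.1 (0.28 ± 0.10, adjusted p = 0.0603). Xrcc6, Xrcc4 (the partner of the ligase), Lig4 (the ligase that seals the joined ends) and Nhej1 (XLF, which aligns them) had 6-hour values in endothelial cells of 0.12, 0.05, 0.07 and 0.47 and in fibroblasts of 0.00, 0.21, 0.06 and 0.00, none called. In myocytes Lig4 was 7.66 and 7.03 CPM in sham and 11 and 10.9 in irradiated libraries at 28 days, without overlap, and did not pass the test (0.55 ± 0.20, adjusted p = 1). In that comparison the irradiated libraries were both above sham for 2839 of 14115 genes and both below for 2177.

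Of the 9 recombination members, 4 were called somewhere. Rbbp8 encodes CtIP, which starts the trimming of broken ends. It rose in fibroblasts at 6 hours, from 35 and 39.1 CPM in sham to 65.3 and 64.3 in irradiated libraries (0.80 ± 0.10, 1.74-fold, adjusted p = 4.92e-05). The fibroblast values were 20.6 and 25 against 28.1 and 33.1 at 7 days (0.42 ± 0.11, adjusted p = 0.0643) and 22.4 and 25 against 27.8 and 23.8 at 28 days, where the groups overlapped. The effect differed between times in fibroblasts (adjusted p = 0.0187). The sham level itself was higher in the 6-hour libraries than later. In endothelial cells Rbbp8 was 19 and 17.5 in sham and 26.8 and 23.6 in irradiated libraries at 6 hours (0.42 ± 0.11, 1.34-fold, adjusted p = 0.0241). That call was lost without the second sham or the first irradiated library (adjusted p up to 0.152) and in the fit of the 4 libraries (0.0975).

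Brca2, a mediator of recombination, rose in endothelial cells at 6 hours, from 1.72 and 1.88 CPM to 3.99 and 4.27 (1.16 ± 0.19, 2.24-fold, adjusted p = 0.00165). Its endothelial sham level was lower at 6 hours than at 7 days (3.12 and 2.97) and 28 days (3.15 and 3.34). In fibroblasts it was 3.47 and 3.75 in sham and 3.63 and 3.52 in irradiated libraries (-0.02 ± 0.19), and in myocytes 2.31 and 2.05 against 1.67 and 1.91 (-0.31 ± 0.44). The difference between cell types did not pass the test (adjusted p = 0.0611). The endothelial effect differed between times (adjusted p = 0.0158), a result lost in 4 of the 12 fits that left out 1 library: the first sham or second irradiated library of 6 hours, or the first sham or second irradiated library of 7 days (adjusted p up to 0.0628).

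Brca1, the scaffold that favours resection, and Exo1, the nuclease that lengthens it, rose in endothelial cells at 28 days. Brca1 was 1.49 and 1.21 CPM in sham and 4.02 and 5.13 in irradiated libraries (1.78 ± 0.26, 3.42-fold, adjusted p = 0.00111), and Exo1 0.531 and 0.396 against 1.8 and 2.16 (2.12 ± 0.33, 4.34-fold, adjusted p = 0.00155). At the earlier times the order was the reverse. Exo1 was 0.885 and 0.819 in sham against 0.346 and 0.415 at 6 hours (-1.19 ± 0.36, adjusted p = 0.0504), and Brca1 2.53 and 1.71 against 1.15 and 1.06 at 7 days (-0.96 ± 0.28, adjusted p = 0.157). Both effects differed between times (adjusted p = 0.00169 for Brca1 and 0.00242 for Exo1), and neither these nor the 28-day calls were lost without any 1 endothelial library. In fibroblasts at 28 days Brca1 was 0.663 and 0.873 in sham and 2.02 and 2.31 in irradiated libraries (1.46 ± 0.37, 2.75-fold, adjusted p = 0.0453). That call was lost in 8 of the 12 fits without 1 library: either irradiated library of 6 hours, either sham library of 7 days or any library of 28 days (adjusted p up to 0.307). It was also lost when the transcript rows of each gene were summed (0.0667). Exo1 in fibroblasts at 28 days was 0.078 and 0.162 against 0.354 and 0.213 (adjusted p = 0.471).

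Of the 2 crosslink repair members, Fancd2, the subunit that is fixed to chromatin by a single ubiquitin, followed the pattern of Brca1 at the later times. It was 1.24 and 1.16 CPM in sham and 0.718 and 0.717 in irradiated endothelial cells at 7 days (-0.75 ± 0.28, adjusted p = 0.322), and 0.92 and 1.03 against 2.7 and 2.66 at 28 days (1.45 ± 0.25, 2.72-fold, adjusted p = 0.00295). Its effect differed between times (adjusted p = 0.00959). Fanca, part of the core ligase that modifies it, was called nowhere. Nor were Palb2, which joins Brca1 and Brca2, Rad52, Rad51c, Xrcc2 and Xrcc3. Several of these were lower in 1 irradiated library of endothelial cells at 28 days than in the other libraries of that time. Xrcc3 was 6.19 and 5.78 in sham and 4.85 and 1.97 in irradiated libraries, Rad52 11 and 11.5 against 10.3 and 6.17, and Fanca 11.6 and 10.6 against 13.6 and 6.41. For Xrcc3 and Fanca the 28-day sham libraries were high. In endothelial libraries of the earlier times Xrcc3 was 1.3 to 2.61 CPM and Fanca 5.34 to 7.72, so 1.97 and 6.41 lay within those ranges. The number of members called in endothelial cells at 28 days changed when the first irradiated library of 28 days was left out. The share of all genes called in that fit is not given.

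In endothelial cells at 28 days markers of cycling cells rose together with Brca1, Exo1, Fancd2 and H2afx. At 6 hours Fancd2 was not on their side: its irradiated libraries, at 1.1 and 1.32 CPM, lay above the sham libraries at 0.912 and 0.853 (0.41 ± 0.26, adjusted p = 0.357). In myocytes at 28 days H2afx was at -0.34 ± 0.25 on the log2 scale (adjusted p = 1). Mki67, a protein of cycling cells, was 14.4 and 13.6 CPM in sham and 7.04 and 9.53 in irradiated endothelial libraries at 6 hours, 27.4 and 18.9 against 4.45 and 3.4 at 7 days, and 14.6 and 17 against 56.6 and 62.5 at 28 days. Of 12 proliferation genes 9 fell in endothelial cells at 6 hours (median log2 fold change -1.08), 12 fell at 7 days (-2.04) and 12 rose at 28 days (1.94). In fibroblasts 4 of 12 fell at 6 hours (-0.61), 0 were called at 7 days by edgeR (-0.18; 0 at an unadjusted p below 0.05) and 12 rose at 28 days (2.23). In myocytes edgeR called none, with medians of -1.14, -1.03 and 1.05 and 7, 5 and 7 genes at an unadjusted p below 0.05. Top2a, the topoisomerase of dividing cells, was 13.9 CPM in sham and 10.2 in irradiated endothelial cells at 6 hours (adjusted p = 0.102), 19.3 against 4.53 at 7 days and 10.2 against 41.9 at 28 days. Whether the 28-day rise of the members depends on the share of cycling cells was not tested, and in bulk RNA more cycling cells and more RNA per cell cannot be told apart.

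**Figure D4:**
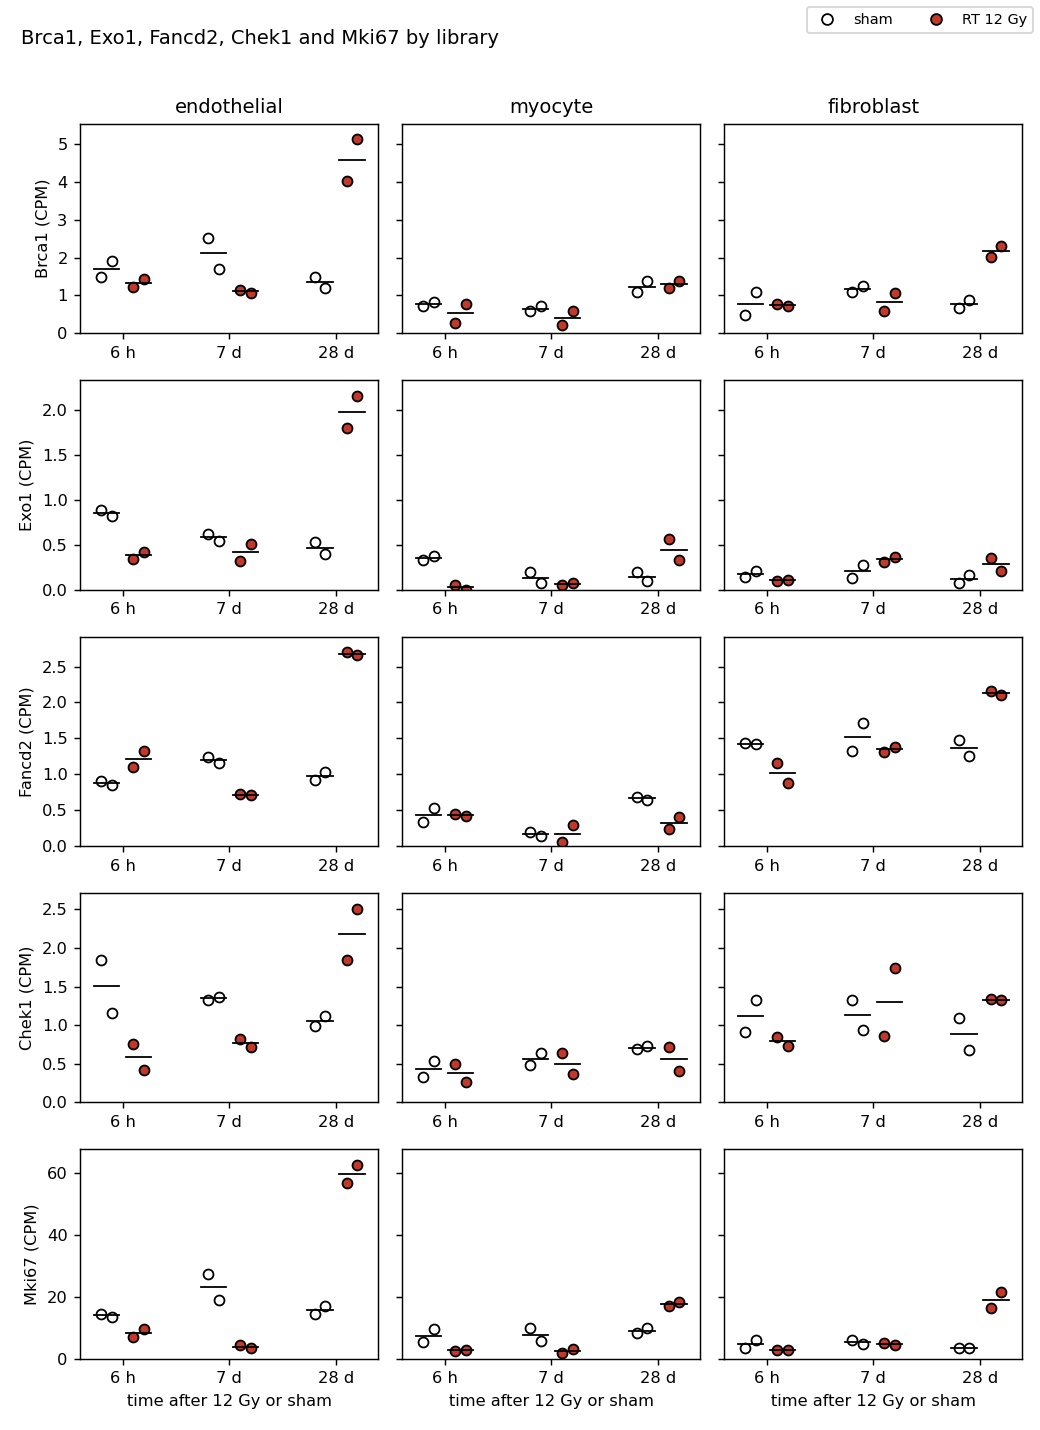
CPM of Brca1, Exo1, Fancd2, Chek1 and the proliferation marker Mki67 in each library (open, sham; red, RT 12 Gy; bars, means of 2) by time and cell type. In endothelial cells all 5 are above sham at 28 days, where Mki67 reaches 56.6 and 62.5 CPM, and all but Fancd2 are below sham at 6 hours.

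The members called at 6 hours in endothelial cells included the longest transcripts of the list. Prkdc has 12674 bases, Atm 11964 and Brca2 11133, and with Trp53bp1 (9624) and Atr (8074) these are the 5 members of 8 kb or longer. The median log2 fold change was 0.64 for these 5 and 0.05 for the other 31. Long transcripts in general were shifted in this comparison: the 595 genes of 8 kb or longer had a median of 0.25, 19.8% of them were called higher against 6.1% of all genes, and the 4726 genes under 2 kb had a median of -0.06. The share of reads that fell in transcripts of 8 kb or longer was 6.07% and 5.75% in the sham and 6.13% and 7.70% in the irradiated libraries of 6 hours. Those 2 sham libraries were the lowest of the 12 endothelial libraries, and the 28-day sham libraries held 8.16% and 8.20%. Within the 6-hour libraries the second irradiated library was the one that stood apart. Without that library Atm was at 0.55 ± 0.13 (adjusted p = 0.0323), Brca2 at 1.10 ± 0.23 (0.0155) and Prkdc at 0.50 ± 0.15 (0.0844). The part of transcript length in these results was not tested further. Ercc5 and Polk, with 4010 and 4226 bases, lie in a range where the median of all genes was 0.05.

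The same relation ran the other way in myocytes at 7 days. There the first irradiated library had 2.22% of its reads in transcripts of 8 kb or longer, and the other 3 libraries of that time 4.90% to 5.49%. Spearman's correlation of transcript length with log2 fold change was -0.60 over 33 members and -0.58 over 14115 genes, against 0.25 over 36 members and 0.17 over 14919 genes in endothelial cells at 6 hours. These are descriptions across genes of the same libraries. In that library Atm was 4.3 CPM (15.8 in its partner, 19.5 and 16.7 in sham), Prkdc 6.51 (14.8, with 15.1 and 15.6 in sham) and Brca2 0.43 (1.81, with 2.12 and 2.77 in sham). The number of members called depended on which of the 2 irradiated libraries of 7 days was kept in the fit. The share of all genes called in those fits is not given, so the counts are not read as results about the members.

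**Figure D5:**
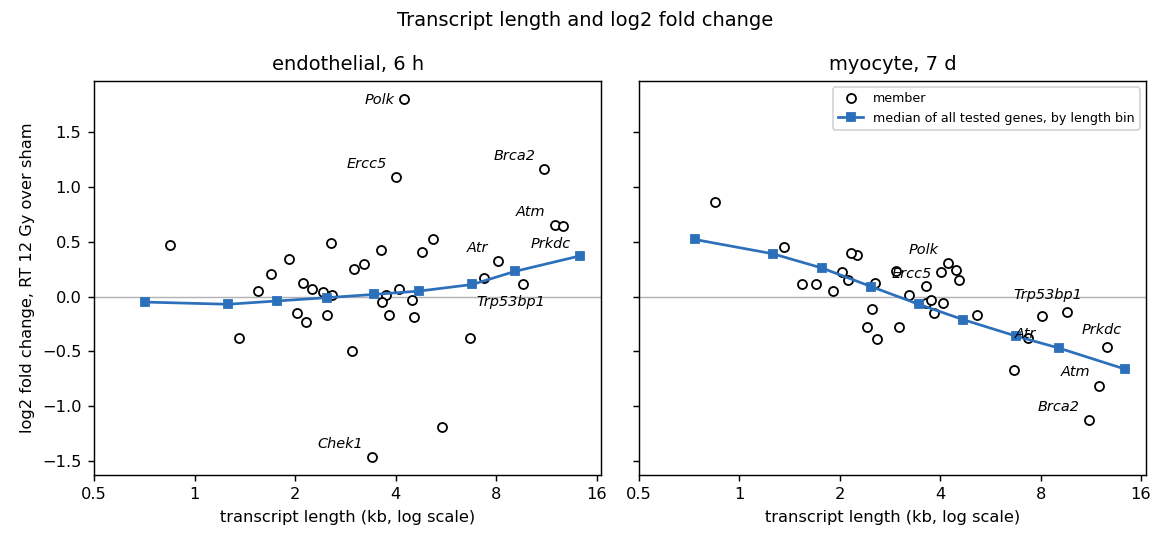
Log2 fold change of RT 12 Gy over sham against transcript length (kb, log scale) in endothelial cells at 6 hours and myocytes at 7 days; circles are members and squares medians of all tested genes in bins of length. The medians rise with length in the first panel, from -0.05 in the shortest bin to 0.37 in the longest, and fall in the second, from 0.52 to -0.66. In the first panel Polk and Chek1 lie farthest from the line, and Exo1, Ercc5 and Brca2 also lie well off it.

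No member's effect differed between cell types at 6 hours, 7 days or 28 days in the edgeR F-test over all 36 libraries (0 of 36 each; 5, 2 and 6 at an unadjusted p below 0.05), where 2.11%, 0.363% and 0.37% of 16234 genes did. DESeq2 found 2, 0 and 0. The calls made in 1 cell type and not in another are therefore not shown to differ between them. The members nearest to that threshold were Brca2 and Ercc5 at 6 hours and Fancd2 at 28 days (adjusted p = 0.0664). For Fancd2 the log2 effect minus the endothelial one was -2.48 in myocytes and -0.82 in fibroblasts. Its myocyte value rests on few reads, at 0.687 and 0.639 CPM in sham and 0.24 and 0.409 in irradiated libraries. Chek1, Exo1 and Fancd2 entered this test though their reads were too few in the fit of myocytes alone. In myocytes no effect differed between times (0 of 33; 2 at an unadjusted p below 0.05; 0 by DESeq2; 0% of genes).

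A further 103 genes of the same pathways, a list drawn up beside the members, is described by its counts beside those of all genes. This list too was chosen with earlier results of these data known, so its shares are descriptions and not a test. Of 102 tested, 9 rose and 3 fell in endothelial cells at 6 hours (8.82% and 2.94%, against 6.1% and 5.23% of all genes). At 7 days 1 rose and 1 fell, and at 28 days 13 rose and 2 fell (12.7% and 1.96%, against 5.72% and 4.25%). In fibroblasts 11 rose and 6 fell at 6 hours (10.8% and 5.88%, against 12.3% of all genes in each direction), 0 were called at 7 days (8 at an unadjusted p below 0.05) and 3 rose at 28 days. In myocytes 0 of 99 were called at any time (1, 12 and 1 at an unadjusted p below 0.05). The medians lay between -0.03 and 0.07. Mgmt, which removes methyl groups from guanine, rose in endothelial cells at all times (2.14-fold, 1.69-fold and 2.22-fold) and in fibroblasts at 6 hours (3.31-fold, adjusted p = 9.60e-06). It was the 1 gene of this list whose effect differed between cell types at 6 hours. Msh6, a mismatch sensor, rose at 6 hours in endothelial cells (1.55-fold, adjusted p = 3.34e-04) and fibroblasts (1.86-fold, adjusted p = 1.61e-06). At 28 days the endothelial genes that rose included Clspn, the ATR adaptor (4.23-fold), and Neil3, a glycosylase of replicating cells (3.42-fold), which had fallen to 0.141-fold at 7 days. In fibroblasts at 28 days Neil3 was 8.72-fold and Rad51ap1 4.02-fold higher.

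For 30 members the files list 1 transcript row. For the other 6 (Trp53bp1, Rbbp8, Palb2, Brca2, Rad52 and Rad51c) they list several, and the row used held 25.3% to 51.1% of the reads summed over the gene's rows. Genome spans of 12 members overlap another RefSeq gene, among them Fancd2 and its antisense partner Fancd2os, and whether counting used the strand is not stated, so reads of such partners cannot be told apart.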

How the data were processed

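RNA-seq libraries of mouse cardiac endothelial cells, myocytes and fibroblasts were made from total RNA with a SMARTER mRNA-seq kit, per the labels' protocols. The submitters' processing notes name GRCm38 and mm10 as the build; which aligner or counter made the files is not stated there. The deposited read counts are whole numbers per RefSeq row (33068 rows, 24061 names), and the second deposited column, headed TPM, equals RPKM exactly (largest difference 0). For each name the row with most reads over 36 libraries was kept. A further 30 read columns, other than the one behind each library's own TPM column, were not used. CPM are counts scaled to the library's total over kept rows.

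edgeR 4.0.16 (R 4.3.3) fitted the 12 libraries of each cell type as group means by its quasi-likelihood functions glmQLFit and glmQLFTest, with TMM sizes, after the filterByExpr filter (at least 10 reads, total at least 15). F-tests compared the effect between times, and, in a fit of 36 libraries, between cell types. Adjusted p-values follow Benjamini-Hochberg over all genes, threshold 0.05. DESeq2 1.42.0 was an alternative, beside RLE sizes, no low-count filter, a replicate block, summed transcript rows, the 4 libraries of a comparison, and each library left out. The fits were tested on simulated data. Promoter windows come from RefSeq (GRCm38.p6). Members and lists were chosen with earlier results of these data known. All members are named; of other pathway genes, at most 4 per direction and comparison, by p.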

Additional observations from a re-analysis of the deposited data

Results flagged for a closer look

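Effects of irradiation that differed between 6 hours, 7 days and 28 days, by an F-test of the difference within a cell type, are given here as values. In endothelial cells the adjusted p from edgeR was 0.00219 for Polk, 0.00467 for Ercc5 and 0.00515 for Atm, each with its highest effect at 6 hours. It was 0.0158 for Brca2 and 0.033 for Prkdc, also highest at 6 hours, and both results were lost in some of the 12 fits that left out 1 library (4 for Brca2; 9 for Prkdc, with an adjusted p up to 0.151). Sham levels of Atm, Brca2 and Prkdc were themselves lower at 6 hours than at the later times. For Brca1 (adjusted p = 0.00169), Exo1 (0.00242), Fancd2 (0.00959), Chek1 (0.0182) and H2afx (0.0254) the highest effect was at 28 days. All 12 proliferation genes were higher then too, and their part was not tested. The Chek1 result was lost without either sham or the second irradiated library of 28 days (adjusted p up to 0.0765). The H2afx result was lost without the first sham or second irradiated library of 6 hours or either sham library of 28 days (up to 0.112). In fibroblasts the adjusted p was 2.26e-05 for Polk and 0.0187 for Rbbp8, which was lost without the first library of either 6-hour group or the second library of either 28-day group (up to 0.0839).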

How the results depend on the processing

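Over 33 single results and 582 alternative values, 519 kept their side of the threshold and 63 passed the threshold no more. No fold change of a called member reversed. For the differences of effects between times only the adjusted p was compared, so their direction was not checked. Counts of called members moved by over 1.5 times as follows. Without the low-count filter, 2 were called in endothelial cells at 7 days, 8 at 28 days and 2 in fibroblasts at 7 days, and effects differed between times for 4 in fibroblasts and 1 in myocytes and between cell types at 6 hours for 1. The fit of 4 libraries called 3 in endothelial cells at 28 days and 2 in myocytes at 6 hours. DESeq2 called 2 in fibroblasts at 7 days and found 2 that differed between cell types at 6 hours. Summed rows left 1 in fibroblasts at 28 days (Brca1 lost, adjusted p = 0.0667). With the replicate number as a block, 2 were called in fibroblasts at 7 days; the block changed no other count by over 1.5 times. Across genes, the difference between replicates 1 and 2 in sham libraries correlated with that in irradiated libraries at -0.11 to 0.11. These values give no sign that the numbers pair sham with irradiated libraries, but they cannot exclude it. Pairing of cell types from the same hearts was not examined. Leaving out each library gave 6 to 9, 1 to 1 and 3 to 10 called in endothelial cells at 6 hours, 7 days and 28 days, 0 to 2, 0 to 16 and 0 to 0 in myocytes and 3 to 4, 0 to 2 and 0 to 2 in fibroblasts. Effects differed between times for 7 to 14 in endothelial cells, 0 to 7 in myocytes and 1 to 3 in fibroblasts, and between cell types for 0 to 4, 0 to 17 and 0 to 1 at the 3 times. The 7, 16 and 17 came without the second irradiated myocyte library of 7 days. The share of all genes called in the fits that left out a library is not given, so these ranges are not read as results about the members. The cause of these shifts was not tested. With 2 libraries a group, a lone library is assumed to vary like the other groups.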
